A study of Mus musculus with 12 samples.

Results

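The 9 genes described here encode the 4 Janus kinases of the mouse (Jak1, Jak2, Jak3 and Tyk2) and 5 STAT transcription factors (Stat3, Stat4, Stat5a, Stat5b and Stat6). They were taken by symbol, with no cut on their values, and make up 9 of the 55487 genes in each of the 3 deposited tables. All 9 were expressed and were tested in every comparison. RNA came from LSK cells. These bone marrow cells lack markers of mature lineages, carry Sca-1 and Kit on their surface, and include the stem cells and multipotent progenitors. They came from transplanted C57BL/6 mice (BMT in the labels) and were sorted after magnetic depletion of mature lineages. Selected polyA RNA was sequenced in 12 libraries. There were 3 libraries of the combination of palbociclib and ruxolitinib, 3 of palbociclib alone, 3 of ruxolitinib alone and 3 of vehicle. Every group, vehicle included, carried the genotype labelled homozygous JAK2V617F, so no group without the mutation enters these comparisons. Palbociclib inhibits the cell cycle kinases CDK4 and CDK6, and ruxolitinib inhibits JAK1 and JAK2. Dose, length of treatment, age and sex of the animals, and the share of LSK cells that came from the donor, were not given in the sources used here. Whether each library stands for its own animal is not labelled either, and the spread behind the p-values may then be technical.

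Janus kinases are bound to the inner parts of cytokine receptors. When a cytokine brings receptor chains together the kinases phosphorylate each other, the receptor and then STAT proteins, which pair, enter the nucleus and switch on target genes such as those of the SOCS family, inhibitors that feed back on the kinases. In blood stem and progenitor cells JAK2 serves the receptors for erythropoietin and the interleukin-3 family, with STAT5A and STAT5B as main effectors. JAK2V617F lies in the pseudokinase domain, which normally restrains the kinase, and it is the common driver of human myeloproliferative neoplasms. Ruxolitinib blocks the activity of the kinases, which messenger RNA does not report, and the measurements below are of messenger RNA alone.

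The stretch of mouse Jak2 around the codon that the genotype names is shown because all 4 groups carry that genotype. The labels do not say whether the mutation lies in the mouse gene or in an added human one. In the reference genome (GRCm38, chr19:29294892-29294942, plus strand) it covers codons 605 to 621 of the coding sequence of 1132 codons, stop included, in exon 13 of 24 of the principal transcript. Codon 617, at positions 29294928 to 29294930, is in capitals and reads as valine in the reference.
Jak2 codons 605 to 621: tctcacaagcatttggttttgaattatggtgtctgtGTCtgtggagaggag
The deposited tables give 1 value per gene, so mutant and unmutated Jak2 transcripts cannot be told apart in them, and transcripts of a human gene may not be counted in the mouse row.

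Stat5a and Stat5b are neighbours on chromosome 11 and near copies of each other, which bears on how reads can be assigned between them. Their coding sequences of 2379 and 2358 bases were identical at 2125 of 2343 aligned bases (90.7%). The longest coding run shared without a mismatch was 324 bases long and crosses introns. Its longest part within 1 exon, 152 bases at chr11:100874339-100874490 (plus strand) in Stat5a and at chr11:100798234-100798385 (minus strand) in Stat5b, is shown because reads that fall in it fit both genes.
Stat5a and Stat5b shared exon stretch: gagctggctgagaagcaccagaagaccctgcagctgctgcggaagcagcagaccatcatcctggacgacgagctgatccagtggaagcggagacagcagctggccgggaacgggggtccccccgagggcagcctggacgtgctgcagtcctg
The ends of the coding sequences differ, and the last 60 coding bases before the stop codon are shown for both genes, at chr11:100883934-100883993 (plus strand) for Stat5a and chr11:100783099-100783158 (minus strand) for Stat5b.
Stat5a coding end: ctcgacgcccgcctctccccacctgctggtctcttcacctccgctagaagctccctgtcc
Stat5b coding end: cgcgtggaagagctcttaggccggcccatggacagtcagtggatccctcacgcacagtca
Windows of 50 bases found in transcripts of both genes made up 8.21% of the windows of Stat5a and 10.98% of those of Stat5b. For windows of 100 bases the shares were 3.44% and 4.79%, and the read length was not given in the sources used here. In the same orientation, no other pair of the 9 genes shared a window of 50, 100 or 150 bases. How the authors' counting treated reads that fit both genes was not given in the sources used here, so a part of each value is uncertain.

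Group levels could be worked out from the tables even though values per sample were not used here. The authors' fold changes, standard errors and base means fix, for each gene, a modelled mean in each group, on a scale of reads normalised for library depth. These levels carried relative errors between 5.62% and 9.38% for the 9 genes, and each is given below with its 95% interval. Fold changes are on the log2 scale with their standard error (SE), n = 3 libraries a group, and "passed" means an adjusted p under 0.05 in the authors' DESeq2 test across all genes.

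Per kilobase of merged exons, the scale on which genes can be compared, Jak1 stood highest and Stat4 lowest in all 4 groups. In vehicle cells Jak1 was at 1302 normalised reads per kb, Stat5b at 1085, Jak3 at 894 and Stat3 at 753. Stat6 was at 713, Stat5a at 666, Jak2 at 549, Tyk2 at 316 and Stat4 at 208, still above 64.5% of the 18486 genes with a level. Jak1, with the broadest use among receptors of the 4 kinases, stood above 94.1% of those genes, and Jak2 above 83.6%. Most neighbours in the vehicle order had overlapping intervals. The steps without overlap lay between Jak2 and Tyk2, at a ratio of 1.73, and between Tyk2 and Stat4, at a ratio of 1.52. Jak3 held the second place with palbociclib, at 1238 reads per kb, and with ruxolitinib, at 1164. It held the third place in combination cells, at 885, and in vehicle cells. In combination cells Stat5b stood above Jak3 at a ratio of only 1.01, with overlapping intervals. The order in the middle depends on which length is used. An alternative chosen after seeing the data put the longest protein-coding transcript in place of merged exons. With it Stat5a came second in vehicle cells at 1222, and Stat5b stood below Jak3 and Stat3 at 1153. Jak3 then held the second place in combination cells too, at 1178.

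**Figure D1:**
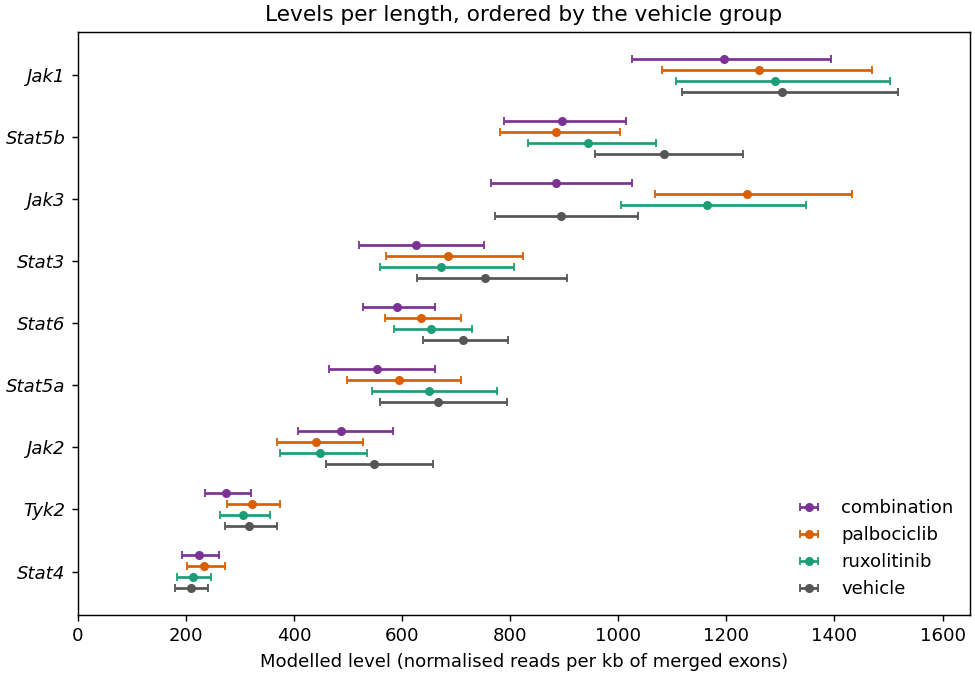
Modelled level of each gene per kilobase of merged exons (x axis, normalised reads per kb) in the combination, palbociclib, ruxolitinib and vehicle groups, with 95% intervals and genes ordered by the vehicle group. Jak3 is the gene whose points spread furthest apart, with palbociclib at 1238 and ruxolitinib at 1164 to the right of combination at 885 and vehicle at 894.

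Jak3, the kinase that binds the common gamma chain of the interleukin-2 receptor family and is known chiefly from lymphoid cells, rose with palbociclib. Jak3 was at 4735 normalised reads in combination cells (95% interval 4087 to 5486), 6623 with palbociclib (5720 to 7670), 6230 with ruxolitinib (5380 to 7215) and 4785 in vehicle cells (4132 to 5542). The intervals of palbociclib and vehicle did not overlap, nor did those of palbociclib and the combination, while that of ruxolitinib overlapped all the others. The share of all genes without such overlap was not worked out, so overlap does not set Jak3 apart from genes at large. In the authors' deposited table Jak3 rose with palbociclib by 0.47 ± 0.15 (SE) on the log2 scale, a fold of 1.38 with a 95% interval of 1.12 to 1.70 (DESeq2 adjusted p = 0.0321). With ruxolitinib the authors' deposited table gave 0.38 ± 0.15, a fold of 1.30 with an interval of 1.06 to 1.60, which did not pass (DESeq2 adjusted p = 0.191, unadjusted p = 0.0127). With the combination the authors' deposited table put Jak3 at -0.02 ± 0.15, a fold of 0.990 with an interval of 0.804 to 1.22 (DESeq2 adjusted p = 0.958). In bulk RNA a change in the number of cells that express a gene and a change in its RNA per cell cannot be told apart. The palbociclib call rests on which genes enter the adjustment: over every gene with a p-value, without the authors' filter on low counts, the adjusted p of Jak3 was 0.0699.

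Jak3 was the 1 member of the 9 that passed with palbociclib, where 8.63% of the 15448 tested genes passed and 4.98% passed with a rise. No member passed with ruxolitinib, where 2.96% of the 15448 tested genes did by the authors' DESeq2 test. None passed with the combination, where 23% of 19228 tested genes did. At an unadjusted p under 0.05 in the same DESeq2 tests there were 2 members with palbociclib (Jak3 and Stat5b), against 22.4% of genes. With ruxolitinib there was 1 (Jak3), against 12.7% of genes, and with the combination there were 2 (Stat5b and Stat6), against 34.9% of genes. The share of members called is therefore near the background with the single drugs. It is below the background with the combination, but 9 genes are too few to tell such a share from that of all genes.

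**Figure D2:**
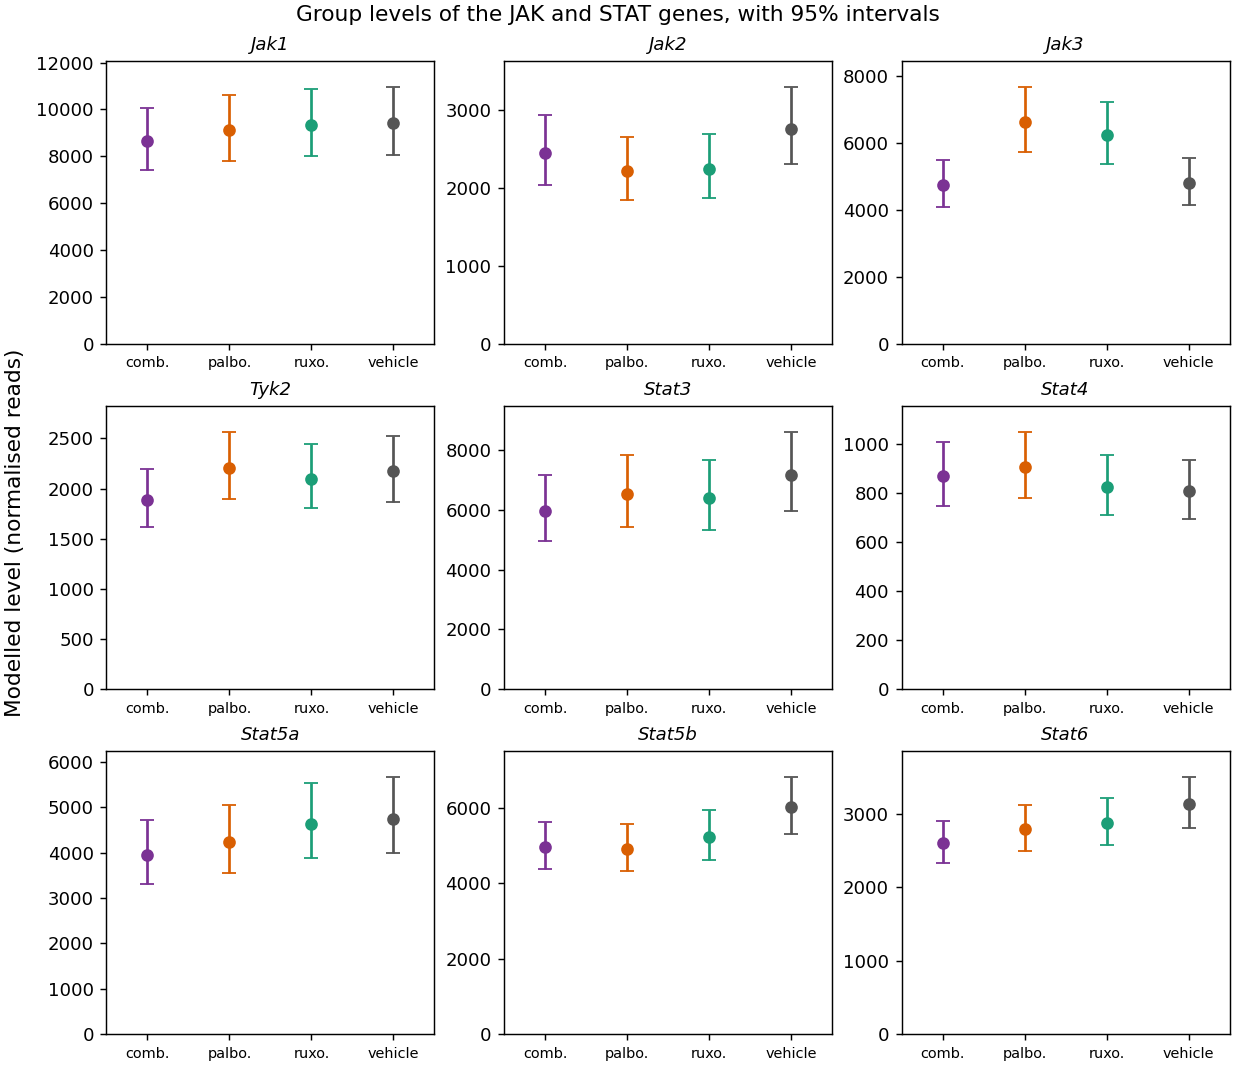
Modelled level (y axis, normalised reads, from 0) of each of the 9 genes in the combination, palbociclib, ruxolitinib and vehicle groups, with 95% intervals. In the Jak3 panel palbociclib (6623) and ruxolitinib (6230) stand above combination (4735) and vehicle (4785), and in the other 8 panels all 4 intervals overlap. The share of all genes without overlap was not worked out.

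Because all 3 comparisons share the vehicle libraries, the drug groups were also set against each other directly. Jak3 was 0.48 ± 0.22 lower on the log2 scale in combination cells than in palbociclib cells, a difference of -0.48 with a 95% interval of -0.91 to -0.06. This had an unadjusted p of 0.0252 and did not pass over 15448 genes (2-sided normal test on the deposited DESeq2 estimates, Benjamini-Hochberg adjusted p = 0.827). The difference between combination and ruxolitinib cells was -0.40 ± 0.22 (-0.82 to 0.03, adjusted p = 0.333 by the same test on DESeq2 estimates). Between palbociclib and ruxolitinib cells it was 0.09 ± 0.22 (-0.34 to 0.51), an interval whose upper end exceeds the log2 fold change of either drug over vehicle. Under this test 0.0129% of genes passed for combination against palbociclib, 1.62% for combination against ruxolitinib and 0.142% for palbociclib against ruxolitinib. No member was among them. At an unadjusted p under 0.05 Jak3 was the 1 member for combination against palbociclib, where 5.81% of genes were. There were none for combination against ruxolitinib (17.1% of genes) or for palbociclib against ruxolitinib (2.95%).

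That test takes the errors as independent, although the shared vehicle makes them too large. With a variance for each group worked out from the authors' errors (recovered variances), the Jak3 difference between combination and ruxolitinib had an SE of 0.15 and passed (adjusted p = 0.0487 from DESeq2 estimates), beside 20.1% of 15359 genes (34.4% at an unadjusted p under 0.05). The difference between combination and palbociclib did not pass with them (adjusted p = 0.0575 from DESeq2 estimates), where 2.14% of genes did (19.8% at an unadjusted p under 0.05, with Jak3). On the same variances 0.957% of genes passed for palbociclib against ruxolitinib, again with no member (10.1% at an unadjusted p under 0.05, also with no member).

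For every gene the log2 fold changes of the single drugs were added and compared with that of the combination. The combination minus the sum of both drugs was -0.86 ± 0.26 for Jak3, with an interval of -1.38 to -0.35. The unadjusted p of 0.00109 was the smallest of the 9 members in this contrast, but the difference did not pass over all genes (2-sided normal test on the deposited DESeq2 estimates, adjusted p = 0.184). Here 0.0712% of genes passed, and 9.59% had an unadjusted p under 0.05, Jak3 being the 1 member. With recovered group variances the interval was -1.29 to -0.44 and Jak3 passed (adjusted p = 0.0124 from DESeq2 estimates), beside 2.12% of genes (17.6% at an unadjusted p under 0.05). The next member was Jak2, at 0.44 ± 0.32, in the opposite direction and with an interval that included 0 (unadjusted p = 0.176 by the same normal test on DESeq2 estimates). The other 7 members lay between -0.18 (Tyk2) and 0.22 (Stat5b) in this contrast, all with intervals that included 0.

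**Figure D3:**
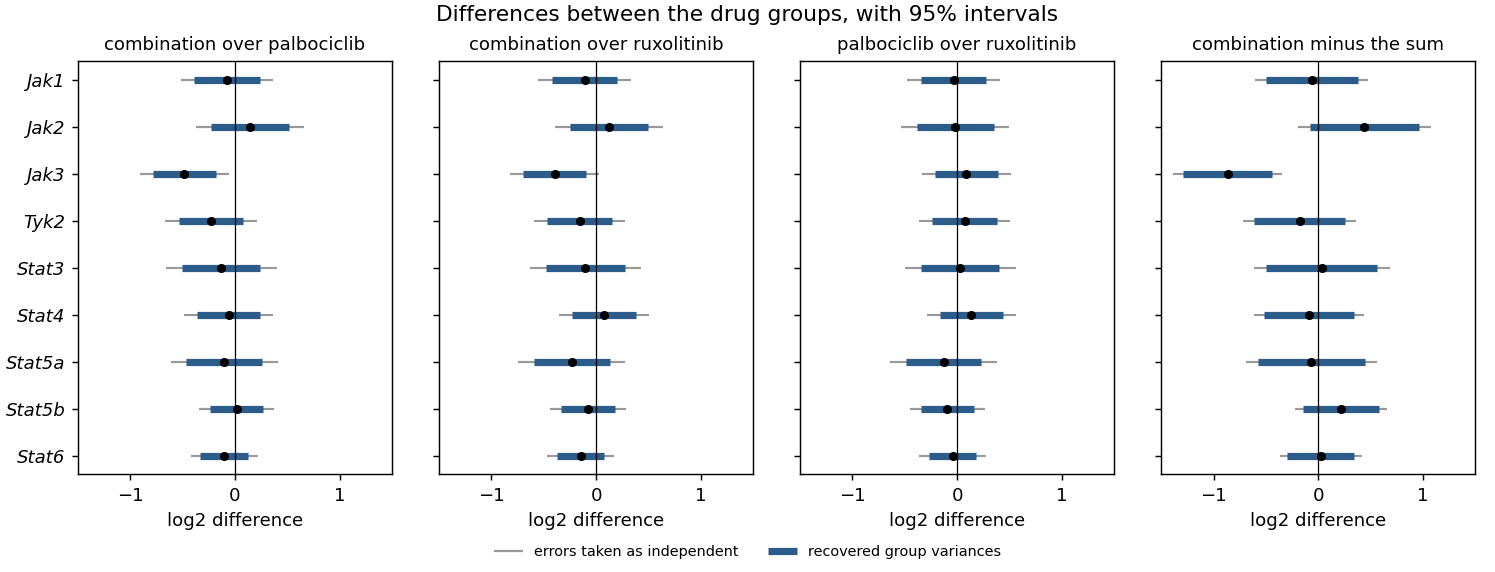
Differences between drug groups on the log2 scale (x axis) for each gene, in 4 panels: combination over palbociclib, combination over ruxolitinib, palbociclib over ruxolitinib, and combination minus the sum of both drugs. Thin lines are 95% intervals with errors taken as independent and thick lines those from recovered group variances. Jak3 lies left of 0 in the panels that involve the combination (-0.48, -0.40 and -0.86), and the other 8 genes have intervals across 0 in every panel.

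Jak2, whose human counterpart carries JAK2V617F in patients and whose product is a target of ruxolitinib, did not pass in any comparison. It was at 2451 normalised reads in combination cells (2046 to 2936), 2218 with palbociclib (1852 to 2657), 2249 with ruxolitinib (1878 to 2693) and 2760 in vehicle cells (2306 to 3304). Vehicle stood highest, and all 4 intervals overlapped. The authors' deposited table gave -0.17 ± 0.19 with the combination (DESeq2 adjusted p = 0.542), -0.32 ± 0.19 with palbociclib (0.325) and -0.30 ± 0.19 with ruxolitinib (0.559). For ruxolitinib the fold of 0.815 in the authors' deposited table had an interval of 0.631 to 1.05, which holds both a fall to 0.631 of the vehicle level and no change. Jak2 and Stat3 had the widest errors of the 9 genes, and Stat6 the narrowest.

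Jak1, the other target of ruxolitinib, varied least of the kinases. Its level was 8640 normalised reads in combination cells, 9108 with palbociclib, 9321 with ruxolitinib and 9412 in vehicle cells. The authors' deposited table placed it at -0.12 ± 0.16 with the combination, -0.05 ± 0.16 with palbociclib and -0.01 ± 0.16 with ruxolitinib (DESeq2 adjusted p between 0.613 and 0.988). The ruxolitinib fold of 0.990 in the authors' deposited table had an interval of 0.798 to 1.23.

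Tyk2, which serves interferon, interleukin-12 and interleukin-23 receptors, was at 1883 normalised reads in combination cells, 2205 with palbociclib, 2098 with ruxolitinib and 2171 in vehicle cells. Its largest departure from vehicle in the authors' deposited table was -0.21 ± 0.16 with the combination (DESeq2 adjusted p = 0.365). As a share of the summed JAK levels per kb, Jak3 made up 31.1% in combination cells, 38.0% with palbociclib, 36.3% with ruxolitinib and 29.2% in vehicle cells. Jak2 made up 17.1%, 13.5% and 13.9% in the combination, palbociclib and ruxolitinib groups, against 17.9% in vehicle cells. These shares are descriptions without a test, and they depend on the gene lengths used.

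None of the 5 STAT genes passed with any drug. Stat5b, a main effector of interleukin-3 signals, was at 4958 normalised reads in combination cells (4372 to 5622), 4903 with palbociclib (4324 to 5560), 5230 with ruxolitinib (4613 to 5930) and 6012 in vehicle cells (5304 to 6815). Vehicle stood above the 3 drug groups, and all intervals overlapped. The authors' deposited table gave -0.28 ± 0.13 with the combination, a fold of 0.825 with an interval of 0.690 to 0.985 (DESeq2 adjusted p = 0.107, unadjusted p = 0.0332). With palbociclib it gave -0.29 ± 0.13, a fold of 0.816 with an interval of 0.683 to 0.974 in the authors' deposited table (DESeq2 adjusted p = 0.147, unadjusted p = 0.0243). With ruxolitinib the fold in the authors' deposited table was 0.870, with an interval of 0.729 to 1.04.

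Stat5a, its near copy, was at 3949 normalised reads in combination cells, 4238 with palbociclib, 4635 with ruxolitinib and 4750 in vehicle cells. The authors' deposited table held it at -0.27 ± 0.18 with the combination, -0.16 ± 0.18 with palbociclib and -0.04 ± 0.18 with ruxolitinib (DESeq2 adjusted p between 0.305 and 0.973). The errors of Stat5a were wider than those of Stat5b, so that a similar fold with the combination stood further from the threshold.

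Stat6, the factor of interleukin-4 and interleukin-13, came nearest to the threshold with the combination. Its level was 2599 normalised reads in combination cells (2326 to 2905), 2792 with palbociclib (2499 to 3119), 2877 with ruxolitinib (2576 to 3213) and 3141 in vehicle cells (2813 to 3506). The authors' deposited table gave -0.27 ± 0.12 with the combination, a fold of 0.828 with an interval of 0.708 to 0.968 (DESeq2 adjusted p = 0.0689, unadjusted p = 0.0179). With palbociclib and ruxolitinib the authors' deposited table gave -0.17 ± 0.11 and -0.13 ± 0.11 (DESeq2 adjusted p = 0.407 and 0.742).

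Stat3, the factor of interleukin-6 type cytokines and of granulocyte colony-stimulating factor, was at 5959 normalised reads in combination cells, 6531 with palbociclib, 6396 with ruxolitinib and 7175 in vehicle cells. The fold in the authors' deposited table was 0.830 with the combination, 0.910 with palbociclib and 0.891 with ruxolitinib, and each interval included 1. Stat4, the factor of interleukin-12 signalling in T and NK cells, was at 869 normalised reads in combination cells, 906 with palbociclib, 824 with ruxolitinib and 807 in vehicle cells. It was the 1 member with a positive log2 fold change in all 3 comparisons, of 0.11 ± 0.15, 0.17 ± 0.15 and 0.03 ± 0.15 with the combination, palbociclib and ruxolitinib in the authors' deposited table. None of these exceeded its error by much, and none passed.

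Most members lay slightly below vehicle. Log2 fold changes in the authors' deposited table were below 0 for 8 of 9 members with the combination, where 46.3% of tested genes were. They were below 0 for 6 with palbociclib, where 47.6% of genes were, and for 7 with ruxolitinib, where 49.1% were. The median member was at -0.21 with the combination, -0.14 with palbociclib and -0.05 with ruxolitinib in the authors' deposited table, beside 0.06, 0.02 and 0.01 for the median tested gene. All 9 members had a base mean above 50. Among the 12095 genes with a base mean of at least 50, the median was -0.014, -0.0024 and 0.00014. Jak1, Jak2, Stat3, Stat5a, Stat5b and Stat6 were below 0 in all 3. The comparisons share their vehicle libraries, so this is 1 pattern seen 3 times and not 3 observations. The share of all genes below 0 in all 3 was not worked out, so the members named have no background to be read against. The shares given for single comparisons cover all tested genes, those with low counts included.

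**Figure D4:**
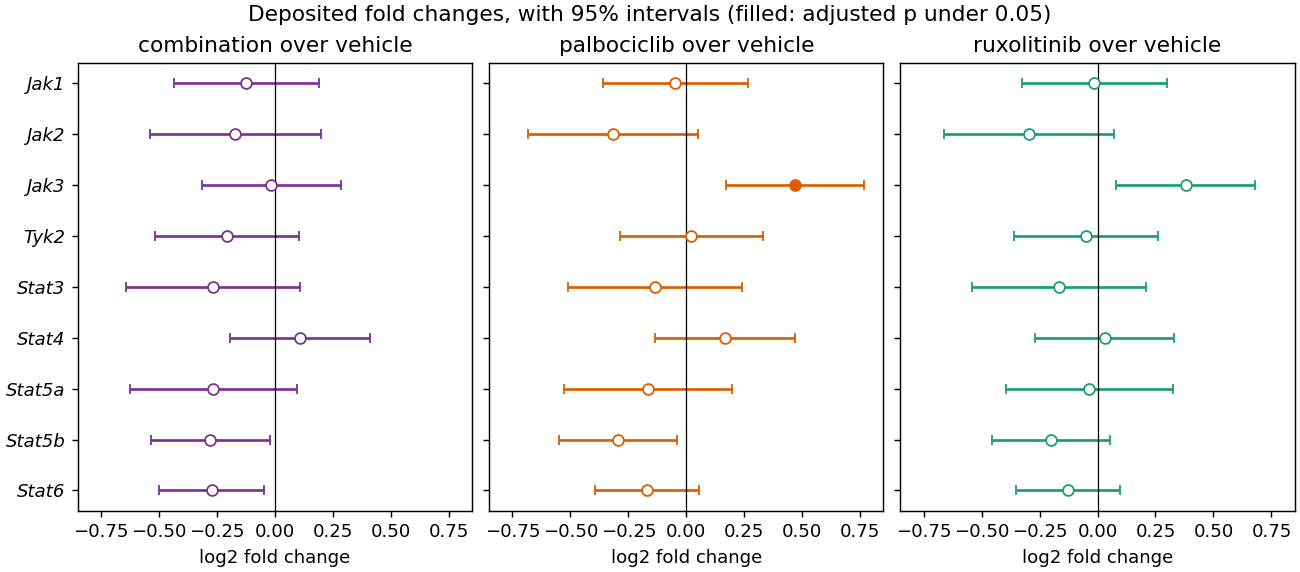
Log2 fold change over vehicle (x axis) of the 9 genes in the authors' deposited tables for the combination, palbociclib and ruxolitinib, with 95% intervals; a filled point passed at an adjusted p under 0.05. Jak3 with palbociclib, at 0.47, is the single filled point, and Stat5b with the combination and palbociclib and Stat6 with the combination have intervals just left of 0.

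The 250 bases before and 50 after the annotated starts of the 9 genes were searched for short motifs on both strands, in 12 RefSeq windows (GRCm38.p6). The STAT site TTCNNNGAA was in 0 of the 12, against 8.30% of all 32851 windows, and the spaced form TTCNNNNGAA, preferred by STAT6, in 0 of 12, against 6.95%. The E2F site TTTCCCGC was also in 0 of 12, against 1.07%. The GC box GGGCGG was in 7 of the 12 windows, against 35.7% of all, and belonged to Jak1, Jak2, Jak3, Tyk2, Stat3, Stat5a and Stat5b. The ETS-type site AGGAAG was in 7 of the 12 windows, against 35.4%. The part of the Jak3 window that lies before the annotated gene start (chr8:71676133-71676295, plus strand) is shown because Jak3 was the member that passed, with the GC box, here on the minus strand, in capitals.
Jak3 upstream: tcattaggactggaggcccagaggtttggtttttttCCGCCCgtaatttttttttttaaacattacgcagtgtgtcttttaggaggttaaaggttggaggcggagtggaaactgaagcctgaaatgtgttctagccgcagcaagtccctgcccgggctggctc
A match is only a description of these letters, and no binding was measured.

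Some members overlap other genes, and whether reads were counted by strand was not given in the sources used here. Jak3 (ENSMUSG00000031805, chr8:71676296-71690575, plus strand) shares 404 exonic bases, 7.55% of its merged exons, with Insl3 on the same strand. Insl3, the gene of a gonadal hormone, had a base mean of 170 normalised reads beside 6235 for Jak3. Base means here cover all libraries of the authors' fit, which by the solution described below include 12 outside these groups. Insl3 was at 0.69 with palbociclib and 1.09 with ruxolitinib in the authors' deposited table, without passing (DESeq2 adjusted p = 0.319 and 0.141). Stat4 (chr1:51987148-52107189, plus strand) shares 1033 bases, 26.7% of its merged exons, with the transcript Gm28177, whose base mean was 8.97. Tyk2 (chr9:21104068-21131243, minus strand) shares 554 bases with the antisense gene 1700084C06Rik, whose base mean was 14.3. Stat3 (chr11:100885098-100939540, minus strand) and Stat5a (chr11:100859351-100885169, plus strand) meet at their ends and share 72 exonic bases, so their reads there cannot be told apart without strand. Stat5b (chr11:100780731-100850724, minus strand) lies next to Stat5a and shares no exonic base with it. Jak1 (chr4:101152367-101265282, minus strand), Jak2 (chr19:29251828-29313080, plus strand) and Stat6 (chr10:127642986-127660957, plus strand) share at most 40 exonic bases with a neighbour.

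The genes whose 3 log2 fold changes lay closest to those of Jak3, by Euclidean distance among 12084 genes, were Gm12359 (0.0614), Ndufaf2 (0.0677) and Pcgf6 (0.0678). None of them passed with palbociclib in the authors' deposited table (DESeq2 adjusted p = 0.701, 0.202 and 0.136). The distance covers 3 comparisons that share vehicle and is a description.

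Beyond the 9 genes, the rest of the signalling chain was read from lists of its parts. Among the receptors that use JAK kinases, 35 were tested with the combination: 9 rose and 7 fell, where 23% of all tested genes passed in either direction. With palbociclib 5 of 32 rose and 8 fell, where 8.63% of all tested genes passed. With ruxolitinib none rose and 5 of 32 fell, where 2.96% of all tested genes passed, these being Csf2rb, Csf2rb2, Ifngr1, Il6ra and Il6st. These 5 also fell with the combination and with palbociclib. The median receptor was at 0.04 with the combination, -0.11 with palbociclib and -0.29 with ruxolitinib in the authors' deposited table, beside the median tested gene given above. Csf2rb, the shared chain of the interleukin-3, interleukin-5 and GM-CSF receptors, was at -1.32 ± 0.26 with the combination and -1.11 ± 0.26 with ruxolitinib in the authors' deposited table (DESeq2 adjusted p = 2.2e-05 and 0.00315). Its near copy Csf2rb2 may share reads with it. Ifngr1, the ligand-binding chain of the interferon gamma receptor, was at -0.94 ± 0.17 with palbociclib and -0.87 ± 0.17 with ruxolitinib in the authors' deposited table (DESeq2 adjusted p = 5.8e-06 and 0.000141). Il6st, the gp130 chain through which interleukin-6 reaches STAT3, was at -0.89 ± 0.17 with the combination in the authors' deposited table (DESeq2 adjusted p = 6.5e-06). Il2rg, the common gamma chain to which JAK3 binds, rose with the combination by 0.51 ± 0.16 in the authors' deposited table (DESeq2 adjusted p = 0.00935). Il2rg was chosen after its values were seen, as the partner of JAK3. With palbociclib, where Jak3 itself rose, Il2rg was at 0.25 ± 0.16 in the authors' deposited table, short of the threshold (DESeq2 adjusted p = 0.360).

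Of the 18 listed cytokines that act through these receptors, 12 were tested with the combination and 4 rose (Il4, Il7, Il15 and Il27), where 23% of all tested genes passed. Il7, a growth factor of lymphoid progenitors, rose by 1.65 ± 0.37 with the combination and by 1.27 ± 0.37 with palbociclib in the authors' deposited table (DESeq2 adjusted p = 0.000213 and 0.0127). It was low throughout, at 126 normalised reads in combination cells and 96.7 with palbociclib, against 40.1 in vehicle cells. With palbociclib Il2 fell as well, so that Il7 and Il2 passed of 10 tested, where 8.63% of all tested genes passed. With ruxolitinib none of 10 tested cytokines passed the DESeq2 test, where 2.96% of all tested genes did. At an unadjusted p under 0.05 with ruxolitinib there were 0, against 12.7% of genes. JAK3 serves the receptors of interleukin-2, interleukin-4, interleukin-7 and interleukin-15, and its own level in combination cells was near that of vehicle cells.

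Of the 8 SOCS genes, 1 passed with the combination and with palbociclib, where 23% and 8.63% of all tested genes passed. This was Socs5, which rose by 0.49 ± 0.17 with the combination in the authors' deposited table (DESeq2 adjusted p = 0.0260) and by 0.50 ± 0.17 with palbociclib (0.0451). Socs2, a STAT5-responsive gene, was at 1.48 ± 0.63 in both in the authors' deposited table, without passing (DESeq2 adjusted p = 0.0719 and 0.126). No SOCS gene passed the DESeq2 test with ruxolitinib, where 2.96% of all tested genes did. At an unadjusted p under 0.05 with ruxolitinib there was 1 of the 8 (Socs5), against 12.7% of genes. The median SOCS gene was at -0.02 with the combination, 0.08 with palbociclib and -0.10 with ruxolitinib in the authors' deposited table. Of 12 phosphatases, PIAS proteins and adaptors that restrain the pathway, 3 fell with the combination (Ptpn1, Ptpn11 and Cbl). With palbociclib 1 fell (Ptpn1). Those counts are near the 23% and 8.63% of all tested genes that passed. None of the 12 passed the DESeq2 test with ruxolitinib, where 2.96% of all tested genes did. At an unadjusted p under 0.05 with ruxolitinib there were 2 of the 12 (Cbl and Cblb), near the 12.7% of genes. The median of the 12 was at -0.09 with the combination, -0.14 with palbociclib and -0.10 with ruxolitinib in the authors' deposited table. Ptpn1, a phosphatase that acts on JAK2 and TYK2, was at -0.66 ± 0.12 with the combination and -0.55 ± 0.11 with palbociclib in the authors' deposited table (DESeq2 adjusted p = 1.2e-06 and 0.00021). Of 17 STAT-responsive genes in the tables, 2 rose with the combination and with palbociclib, where 23% and 8.63% of all tested genes passed. These were the cyclins Ccnd1 and Ccnd2. Of the 17, none passed the DESeq2 test with ruxolitinib, where 2.96% of all tested genes did. At an unadjusted p under 0.05 with ruxolitinib there was 1 of the 17 (Lrg1), against 12.7% of genes. The median of the 17 was at 0.08 with the combination, 0.09 with palbociclib and -0.12 with ruxolitinib in the authors' deposited table. Ccnd1 rose by 1.17 ± 0.25 with the combination and by 1.66 ± 0.25 with palbociclib in the authors' deposited table (DESeq2 adjusted p = 0.00015 and 7.8e-08). Cyclin D binds CDK4 and CDK6, the targets of palbociclib, and both genes also answer to factors other than STATs.

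Depth, as reads in genes worked out from the tables, lay between 18.2 and 44.7 M a library, and both ends of that range were combination libraries. Marker genes of several cell types moved with the groups. For the counts below, 23% of all tested genes passed with the combination, 8.63% with palbociclib and 2.96% with ruxolitinib, in either direction. Of 8 stem and progenitor genes, 5 rose with the combination, 3 with palbociclib and 1 with ruxolitinib, and Ly6a, the gene of the sorted marker Sca-1, was at 3557, 2102 and 1165 normalised reads in the combination, palbociclib and ruxolitinib groups, against 1004 in vehicle cells. Kit was at 19878, 15506 and 14933, against 14277 in vehicle cells. The summed level of 10 plasma cell genes was 266926, 15326 and 3379 normalised reads, against 4886 in vehicle cells, and 9 of the 10 rose with the combination. Jchain alone made up most of the combination and palbociclib sums, at 252586 and 11104.5. It was at 373 with ruxolitinib and 1264 in vehicle cells. The 11 granulocyte genes summed to 23063, 41564 and 42417, against 127000 in vehicle cells, although 5 of them rose with the combination and 6 with palbociclib. Mpo alone made up most of each sum, at 14072, 25825 and 32065, against 98091 in vehicle cells. Monocyte and dendritic genes summed to 3301, 4137 and 4722, against 13287 in vehicle cells, and 7 of 9 tested fell with the combination and 6 of 8 with each single drug. Erythroid genes summed to 14719, 8132 and 5019, against 17577 in vehicle cells, and mast cell and basophil genes to 17842, 14231 and 11949, against 19698. With the combination 2 erythroid genes rose (Hba-a1 and Hbb-bs) and 2 fell (Gata1 and Tspo2), while 3 fell with palbociclib and 5 with ruxolitinib. Of the mast cell and basophil genes, 1 fell with the combination, 2 with palbociclib and 4 with ruxolitinib. Gata2, the largest part of those sums, was at 9498, 8355 and 8203, against 7257.5 in vehicle cells. Megakaryocyte genes summed to 18874, 18238 and 10583, against 8515 in vehicle cells, and B lineage genes to 2642, 646 and 559, against 634. Genes of T and NK cells, where JAK3 and STAT4 are best known, summed to 3640, 4096 and 3396, against 3700 in vehicle cells, for 8 of 14 genes with a level. Most of that sum was Nkg7. The T cell genes Cd3e, Cd3d and Cd8a had base means of 1.01, 0.845 and 0.442 over all libraries of the authors' fit. All 4 Y-linked genes listed were lower in combination and palbociclib cells than in vehicle cells and did not pass with ruxolitinib. Sex was not labelled, so a difference in sex makeup between the groups and a difference in treatment cannot be told apart in these comparisons. Ddx3y was at 0.925, 4.03 and 1113 normalised reads in the combination, palbociclib and ruxolitinib groups, against 422 in vehicle cells. The part of these features in the values of the 9 genes and of the receptor, cytokine and regulator lists was not tested.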

How the data were processed

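RNA of 12 libraries was measured in 4 groups of 3. Per the submitters' processing notes, fastp 0.20.0, HISAT2 2.0.1, SAMtools 1.10, featureCounts 2.0.0 and DESeq2 were used with genome build GRCm38, without stated settings. The 3 tables compare each drug group with vehicle. The base mean is a signal, the deposited mean of normalised counts over the libraries of the authors' fit. The log2 fold change and its error are the authors' unshrunken DESeq2 estimates, per the file headers. The deposited score is the Wald statistic. The deposited p-value belongs to it, and the adjusted p is the authors' Benjamini-Hochberg value after independent filtering.

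Nothing was refitted, since values per sample were not used here. Size factors, group levels and dispersions were solved from the base means and the 3 errors in Python with pandas 2.3.3, scipy 1.17.1 and numpy 2.4.6. The solution implies that the authors' fit held 24 libraries, 12 of them outside these groups, which no label states, and the levels rest on that inference. The errors were met within 1e-06 for 18520 of 19228 genes (96.3%), the 9 members included. Intervals cover counting error and modelled spread only. Differences between drug groups used the root of the summed squared errors, or, as an alternative, recovered variances (15359 genes) or a correlation of 0.5, with adjustment over all genes. The methods were tested on simulated data. Coordinates and lengths came from GENCODE M21 (99.4% of gene identifiers matched), and promoters from RefSeq.

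The members and gene lists were chosen with earlier results of these data known. The rule for named genes took all 9 members, up to 3 genes of each list with the smallest p per comparison, the 3 genes nearest to a member that passed, and Ly6a and Kit. The Y-linked list, and T cell, Il2rg, Insl3 and other overlapping genes, were added after their values were seen. Some members of the lists are not reported here by name. Replicate numbers could not be used as pairs, and no library was left out, for want of values per sample.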

Additional observations from a re-analysis of the deposited data

How the results depend on the processing

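Of 252 recalculated values for single members over all comparisons, 246 kept their direction and their side of the threshold, 1 became weaker, 5 became stronger and 0 reversed. A direction could reverse only where the median fold change was taken away, since the other alternatives kept the same estimates. The number of members that passed with palbociclib was 0 when the adjustment covered every gene with a p-value, where Jak3 had a DESeq2 adjusted p of 0.0699; over its alternatives that p ranged from 0.0281 to 0.0699. For the combination the number was 1 at a threshold of 0.1, which took in Stat6 (DESeq2 adjusted p = 0.0689). For combination against ruxolitinib it was 1 with a correlation of 0.5 between estimates and 1 with recovered group variances, Jak3 in each case (adjusted p = 0.0478 and 0.0487 from DESeq2 estimates). For the combination minus the sum of both drugs it was 1 with that correlation and 1 with recovered variances, again Jak3, whose adjusted p ranged from 0.0109 to 0.190 over the alternatives. The smaller error in these alternatives follows from their construction. Taking away the median fold change of the 12095 genes with a base mean of at least 50, which was -0.0024 with palbociclib and -0.014 with the combination, changed no call. Levels per kb moved for 7 of 9 members when the longest transcript replaced merged exons. No paired analysis was possible because the tables hold group comparisons and values per sample were not used here; leaving out single libraries was not run for the same reason, so a result that rests on 1 library would not be seen. With 3 libraries a group, errors of 0.11 to 0.19 on the log2 scale limit what the data can tell about changes of the size seen in most members.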
